A study of Mus musculus with 15 samples.

Results

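Accessible regions at 4 loci of the epithelial-mesenchymal programme, Zeb1, Zeb2, Cdh1 and Vim, were followed through serial transplantation of mouse colon cancer organoids. The assay was ATAC-seq: a transposase cuts and tags open chromatin, and reads are counted per region. The members were all regions of the deposited count table that overlapped fixed intervals of the mm9 genome, of 290 kb on chromosome 18 for Zeb1, 250 kb on chromosome 2 for Zeb2, 160 kb on chromosome 8 for Cdh1 and 120 kb on chromosome 2 for Vim. They numbered 38 of the 43020 regions, with 2 at Zeb1, 5 at Zeb2, 22 at Cdh1 and 9 at Vim. After the filter on low counts 36 were tested, and peak_51206 and peak_51211 at Vim were not. The 15 libraries were made from colon cancer organoids of genotype AKP, a label shared by all groups, with C57Bl6 as recipient mice. The groups Met1, Met2 and Met3 held organoids grown from liver metastases, with the number giving the round of transplantation. Primary2 and Primary3 held organoids grown from primary tumours of the same numbering, and each of the 5 groups had 3 libraries. Organoids of each origin had been placed again into the colons of immunocompetent mice. The labels do not say whether the 3 libraries of a group came from separate animals, so the p-values measure the spread between these libraries, which may be technical. Primary libraries of round 1 were not analysed here.

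Cdh1 encodes E-cadherin, the adhesion molecule that joins epithelial cells at adherens junctions. Zeb1 and Zeb2 encode zinc-finger repressors that bind E-box sequences, including those of the Cdh1 promoter, and lower its transcription during epithelial-mesenchymal transition. Vim encodes vimentin, an intermediate filament protein of mesenchymal cells that is used as a marker of this transition. In intestinal epithelium Cdh1 is active, while Zeb1, Zeb2 and Vim are known mainly from stromal cells. Accessibility is not expression, and the libraries hold no measure of the transcripts.

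Promoter sequences from RefSeq are shown for Vim and Zeb2. Both had regions that differed between metastasis and primary libraries, as had Cdh1 and Zeb1. The promoter sequences used held no Cdh1 window, so its E-boxes were not examined, and Zeb1 windows were not searched. Each window runs from 250 bases before to 50 bases after an annotated start (build GRCm38.p6), and was not matched to the mm9 regions of the count table. Capitals mark matches, on either strand, to CACCTG, the E-box bound by ZEB and SNAIL factors, to AGATAA, known from sites of GATA factors, or to TGANTCA, the AP-1 motif. The Zeb2 window is that of 1 of 4 annotated starts, at chr2:45110228-45110527 on the minus strand, and the Vim window lies at chr2:13574061-13574360 on the plus strand.
Zeb2 promoter: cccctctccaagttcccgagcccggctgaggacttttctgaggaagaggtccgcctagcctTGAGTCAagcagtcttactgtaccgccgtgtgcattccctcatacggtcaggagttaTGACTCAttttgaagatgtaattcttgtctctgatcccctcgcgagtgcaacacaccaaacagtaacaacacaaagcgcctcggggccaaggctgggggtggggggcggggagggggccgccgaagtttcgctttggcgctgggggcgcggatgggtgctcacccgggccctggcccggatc
Vim promoter: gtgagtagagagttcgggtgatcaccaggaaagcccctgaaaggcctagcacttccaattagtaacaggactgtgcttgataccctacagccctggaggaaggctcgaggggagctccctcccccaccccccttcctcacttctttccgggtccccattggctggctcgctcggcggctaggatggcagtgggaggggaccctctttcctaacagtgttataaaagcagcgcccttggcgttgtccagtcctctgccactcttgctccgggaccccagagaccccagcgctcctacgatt
The printed Zeb2 window held 2 matches to TGANTCA, which the other 3 Zeb2 windows and the Vim window did not hold. None of these 5 windows held CACCTG or AGATAA. Of 32851 RefSeq promoter windows of the same length, 20.2% held CACCTG, 11.2% AGATAA and 7.81% TGANTCA.

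The loci differed in how densely the deposited regions lay. Region names reach at least peak_100583 though 43020 regions were given, and numbers without a region are not counted here. The Cdh1 interval held 13.75 regions per 100 kb, and 0.056% of 16068 windows of the same 160 kb along the genome held as many or more. The Vim interval held 7.5 per 100 kb, which 4.35% of windows of 120 kb reached, whereas Zeb2 (2 per 100 kb) and Zeb1 (0.69 per 100 kb) had counts that 34.2% and 57.8% of windows of their widths reached. By median level per length the Cdh1 regions were also the strongest. Median accessibility over the 15 libraries was 39.7 CPM per kb (library-scaled counts, CPM, with TMM factors) at the Cdh1 regions, 18.8 at Zeb2, 11.7 at Zeb1 and 11.5 at Vim, against 17.3 over all regions. The strongest member per length was peak_98601 at Cdh1, with 91.4 CPM per kb. In the gene order of the RefSeq annotation Cdh1 lies between Cdh3, which encodes P-cadherin, and Tango6, and Vim between Trdmt1 and St8sia6. Zeb2 lies between Gtdc1 and Acvr2a, and Zeb1 between Zfp438 and Arhgap12. Regions of the intervals could therefore belong to these neighbours, and which region covers a gene's start was not determined here.

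The libraries held 285633 to 5916109 counts in regions. Member regions of low signal are near the limit of the shallowest library, Primary3 replicate 2, in which 3 counts amount to 9.56 CPM, against 3.40 CPM in Met1 replicate 1 and 0.52 to 2.42 CPM in the others. Whole chromosomes also differed between the groups. The median level of chromosome 8, which carries Cdh1, differed by -0.32 on the log2 scale between the metastasis libraries of rounds 2 and 3 and the primary libraries of these rounds, that of chromosome 18 (Zeb1) by -0.42 and that of chromosome 2 (Zeb2 and Vim) by -0.13. These shifts are given beside the results, and what lies behind them was not tested.

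To ask which regions differed by origin, metastasis and primary libraries were compared within rounds 2 and 3 together. Of the 36 tested regions 11 changed, 10 lower and 1 higher in metastasis libraries (edgeR quasi-likelihood test, Benjamini-Hochberg adjusted p under 0.05 over 39952 regions). Among all tested regions 20.2% were called, 8.98% lower and 11.2% higher. The members' share of lower calls was 27.8%. The lower regions were 6 of 22 at Cdh1, 2 of 5 at Zeb2, 1 of 7 at Vim and 1 of 2 at Zeb1, and the higher one was at Vim. The median log2 fold change of the members was -0.30, against 0.04 over all tested regions. Lower regions were thus called in the interval of Cdh1 and in those of Zeb1 and Zeb2, at Zeb1 in 1 weak region. Whether they act on these genes was not tested. With each library's chromosome medians removed, 7 of the 11 remained called, and of the 6 at Cdh1 2 did. These were 6 lower and 1 higher of the 36 members. Of all 39952 regions 7488 were called in that setting, 3397 lower and 4091 higher. Without Primary3 replicate 3, the deepest library, 6 members were called, and 6449 of all 41112 regions then tested. Of the 11, 6 were called under all 23 alternatives: peak_98587 and peak_98602 at Cdh1, peak_51204 and peak_51209 at Vim, and peak_53161 and peak_53162 at Zeb2.

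**Figure D1:**
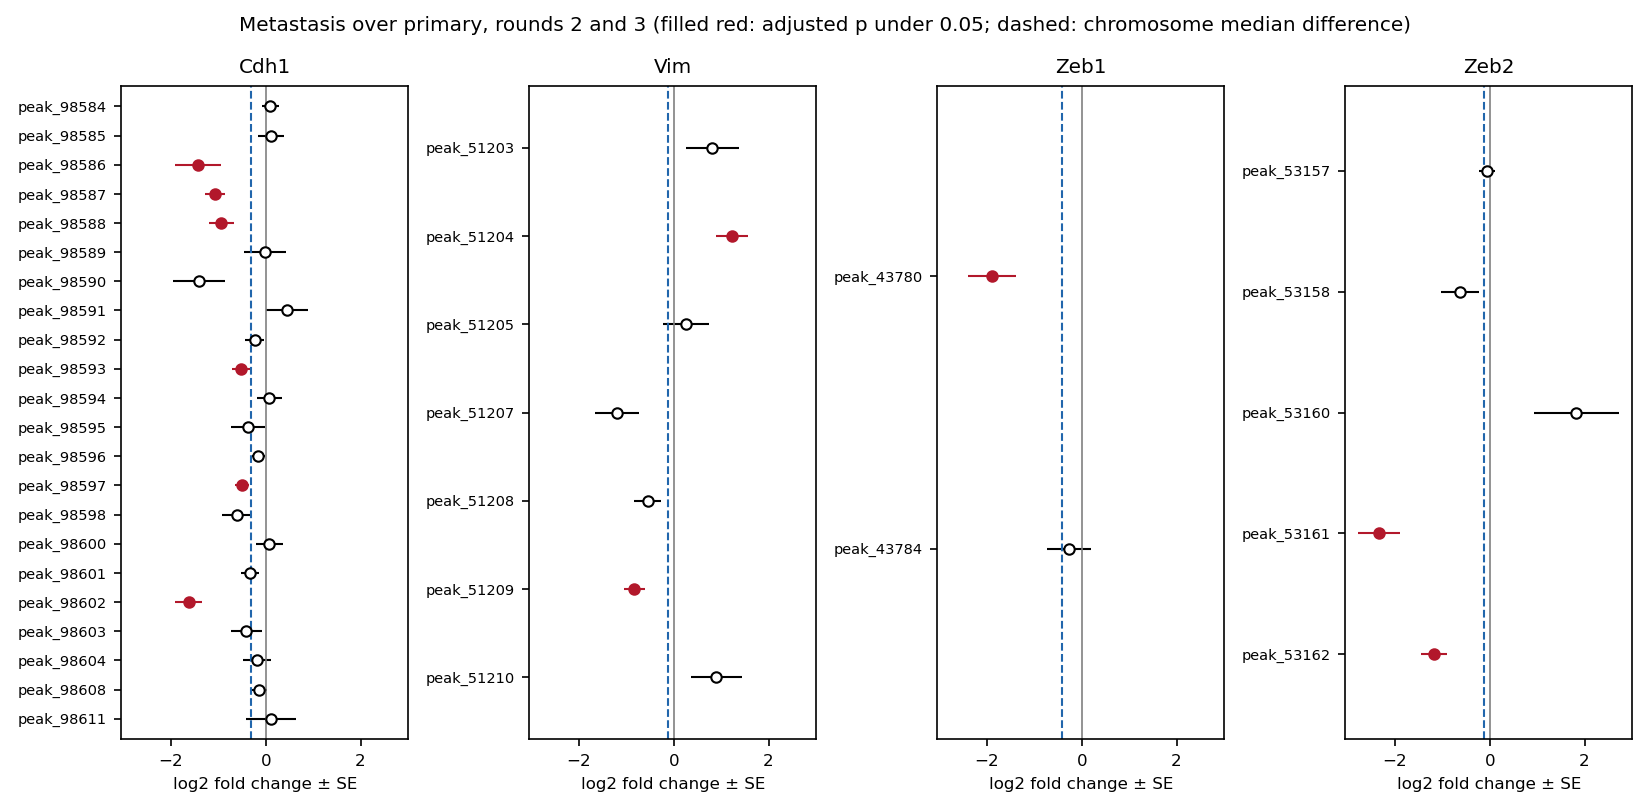
Log2 fold change of metastasis over primary libraries in rounds 2 and 3 (x axis, ± SE) for each tested region, ordered by position within its locus. Red filled points passed the adjusted p of 0.05, and the dashed rule is the difference of the chromosome median, -0.32 for Cdh1, -0.13 for Vim and Zeb2 and -0.42 for Zeb1. The 10 lower calls lie left of the dashed rules and the 1 higher call, peak_51204 at Vim, lies to the right.

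At Cdh1 the change was uneven along the interval. The most changed region was peak_98602 (chromosome 8, 109164666 to 109165670), with 19.9, 20.6 and 16.8 CPM in the Met2 libraries and 7.29, 14.5 and 31.1 in the Met3 libraries, against 47.5, 55.8 and 65.3 in Primary2 and 64.7, 41.4 and 59.2 in Primary3. All 6 metastasis libraries of these rounds lay below all 6 primary libraries. This was -1.63 ± 0.29 on the log2 scale (SE; adjusted p = 0.00029 by edgeR), and -1.32 with chromosome medians removed. The region took 2.49% ± 1.07 of the counts of the Cdh1 interval in metastasis libraries and 5.80% ± 0.73 in primary libraries (SD, n = 6 each), a share that does not depend on library scaling or on the level of the chromosome. Its neighbour peak_98601 (109156451 to 109157442), the strongest region per length, averaged 82.2 ± 26.5 CPM in metastasis libraries and 105 ± 26.2 in primary libraries (SD, n = 6 each) and was not called (log2 fold change -0.33 ± 0.19).

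A second group of lower regions lay side by side near the start of the interval. At peak_98587 (109095711 to 109097415) the metastasis libraries held 16.6, 47.1 and 30.8 CPM in Met2 and 41.3, 70.2 and 50.5 in Met3, and the primary libraries 58.5, 73.3 and 96.0 in Primary2 and 112.2, 89.2 and 97.5 in Primary3. Within each round the metastasis libraries lay below the primary libraries, while Met3 replicate 2 exceeded the lowest Primary2 library. The difference was -1.07 ± 0.21 on the log2 scale (adjusted p = 0.000852 by edgeR), and the region's share of the interval was 5.67% ± 2.10 in metastasis and 9.09% ± 1.28 in primary libraries (SD, n = 6 each). Next to it, peak_98588 (109100933 to 109101539) averaged 16.7 ± 4.71 CPM in metastasis and 31.5 ± 9.35 in primary libraries. The difference was -0.94 ± 0.27 on the log2 scale (adjusted p = 0.0148 by edgeR), with no overlap between the 6 and 6 libraries. The gap was narrow, from 21.7 CPM in Met3 replicate 2 to 22.3 in Primary3 replicate 2, a value that rests on 7 counts. The small region before these 2 regions, peak_98586 (109094368 to 109094674), averaged 4.73 ± 4.59 and 11.3 ± 4.50 CPM in metastasis and primary libraries. Its values overlapped (log2 fold change -1.43 ± 0.48, edgeR adjusted p = 0.0378). These 2 calls depended on the setting. With chromosome medians removed, neither peak_98588 (-0.62) nor peak_98586 (-1.10) was called. The call at peak_98588 was also lost without Primary2 replicate 1 (-0.78) or Primary3 replicate 3 (-0.83). That at peak_98586 was lost with the replicate block (-1.50) and without any of Met2 replicates 1 and 3, Met3 replicates 1 and 3, Primary2 replicates 1 and 3 and Primary3 replicates 1 and 3 (-1.46 to -1.20), and its value was -2.06 without Met2 replicate 2.

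The remaining lower calls at Cdh1 were of a size close to the shift of chromosome 8. The region with the highest level in the interval, peak_98597 (109143192 to 109144619), held 85.7, 100.4 and 96.5 CPM in Met2 and 87.5, 86.6 and 101.0 in Met3, against 96.7, 113.8 and 167.8 in Primary2 and 135.7, 137.0 and 141.5 in Primary3. Met2 replicate 2 and Met3 replicate 3 exceeded the lowest primary library, Primary2 replicate 1. The log2 fold change was -0.50 ± 0.15 (edgeR adjusted p = 0.0211), and its share of the interval was 12.6% ± 1.44 in metastasis and 13.7% ± 1.49 in primary libraries (SD, n = 6 each). At peak_98593 (109126915 to 109127992) the means were 51.2 ± 12.0 CPM in metastasis and 74.1 ± 8.94 in primary libraries (log2 fold change -0.52 ± 0.18, edgeR adjusted p = 0.0469). With chromosome medians removed the values were -0.18 at peak_98597 and -0.20 at peak_98593, and neither was called. The call at peak_98597 was also lost without Met3 replicate 1 or 2, Primary2 replicate 3 or Primary3 replicate 3 (-0.49 to -0.38). That at peak_98593 was lost by DESeq2 (-0.48), with no filter, with a filter of 1 CPM in at least 6 libraries, with the replicate block and without any library other than Met1 replicate 1, Met2 replicate 1 and Met3 replicate 1 (-0.56 to -0.41). The other 16 regions of the interval did not pass the test, with log2 fold changes from -1.41 (peak_98590) to 0.45 (peak_98591).

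**Figure D2:**
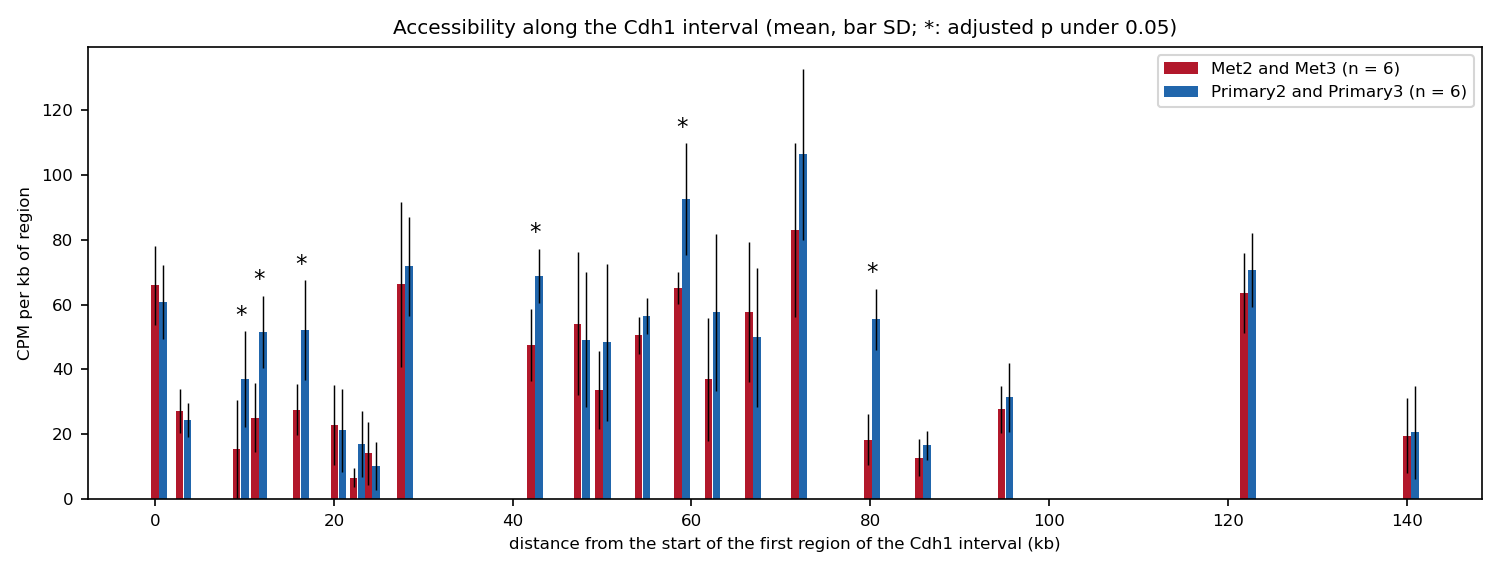
Mean accessibility in CPM per kb of region (y axis, bars SD, n = 6 libraries each) of the 22 Cdh1 regions, placed by their distance in kb from the start of the first region (x axis), for metastasis libraries (red, left) and primary libraries (blue, right) of rounds 2 and 3. Asterisks mark the 6 called regions, of which peak_98602, about 80 kb into the interval, stood at 18.4 ± 7.87 CPM in metastasis and 55.6 ± 9.56 in primary libraries.

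Summed over its 22 regions, the Cdh1 interval held 742.2 ± 52.2 CPM in the metastasis libraries of rounds 2 and 3 and 957.6 ± 90.8 in the primary libraries (SD, n = 6 each), without overlap (663.3 to 821.4 and 835.2 to 1054). The log2 ratio was -0.37, and -0.044 once each library was divided by its chromosome 8 level. The 247 tested regions within 5 Mb of the interval shifted as the chromosome did, at -0.14 ± 0.04 on the log2 scale in metastasis and 0.20 ± 0.16 in primary libraries, and division by their level left a log2 ratio of -0.023. The summed accessibility of Cdh1 therefore differed by about as much as its surroundings, whereas peak_98602 and peak_98587 differed by more. The Met1 libraries summed to 603.5 to 762.9 CPM, in the range of the later metastasis libraries or below it.

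At Zeb2 the decrease sat in 2 of 5 regions. Peak_53161 (chromosome 2, 44824282 to 44825179) showed the largest decrease among the members, with 15.3, 5.83 and 2.80 CPM in Met2 and 1.21, 4.96 and 5.83 in Met3, against 42.3, 32.8 and 19.4 in Primary2 and 25.2, 6.37 and 37.7 in Primary3. The 6.37 CPM of Primary3 replicate 2 rest on 2 counts, and apart from this library all primary libraries lay above all metastasis libraries. Low metastasis values rest on few counts too, as the 1.21 CPM of Met3 replicate 1, where 3 counts amount to 1.82 CPM. Its log2 fold change reached -2.34 ± 0.43 (adjusted p = 0.000528 by edgeR), with a range of -2.75 to -2.09 over 23 alternatives. The region took 4.93% ± 2.64 of the Zeb2 counts in metastasis and 17.5% ± 7.63 in primary libraries (SD, n = 6 each).

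The Zeb2 region at the next higher coordinate, peak_53162 (44874636 to 44875723), held 36.5, 24.2 and 12.6 CPM in Met2 and 14.0, 14.9 and 13.6 in Met3, against 38.2, 54.2 and 35.5 in Primary2 and 43.4, 12.7 and 56.1 in Primary3. The Met3 libraries lay close together, below all primary libraries except Primary3 replicate 2, which held 4 counts, and Met2 replicate 1 reached the primary range. Its log2 fold change was -1.18 ± 0.28 (edgeR adjusted p = 0.00439). In contrast the strongest Zeb2 region, peak_53157 (44782001 to 44783306), averaged 68.6 ± 11.7 CPM in metastasis and 72.5 ± 19.6 in primary libraries (SD, n = 6 each). Its log2 fold change of -0.06 ± 0.17 was not called, and it was 0.067 with chromosome medians removed, 0.02 without Met3 replicate 1 and 0.073 without Primary3 replicate 1. Peak_53160 (44821874 to 44822362) had a fold change of 1.83 ± 0.90 that was not called and came largely from Met2 replicate 1, which held 38.5 CPM. The other later metastasis libraries held 0 to 3.88 and the primary libraries 0 to 3.28. The Met1 libraries held 6.34 to 10.4 CPM, above all primary libraries. Met1 over the primary groups was 2.49 ± 0.96 (edgeR adjusted p = 0.108, not called). It was called in the fit of only the groups compared and without Met2 replicate 1 or 2. The 69 tested regions within 5 Mb of the Zeb2 interval differed by 0.09 between metastasis and primary libraries.

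The Zeb1 interval held 2 weak regions, of which 1 was called. Peak_43780 (chromosome 18, 5740321 to 5740786) held 3.98, 4.04 and 0.70 CPM in Met2 and 1.82, 3.05 and 1.94 in Met3, against 5.79, 15.3 and 12.9 in Primary2 and 5.94, 0 and 15.3 in Primary3. Except for Primary3 replicate 2, with 0 counts where 3 would be 9.56 CPM, every primary library lay above every metastasis library. The log2 fold change was -1.90 ± 0.51 (edgeR adjusted p = 0.00931), -1.49 with chromosome medians removed, and -1.40 and not called without Primary3 replicate 3. The second region, peak_43784 (5819595 to 5820233), averaged 6.04 ± 3.89 CPM in metastasis and 6.14 ± 3.23 in primary libraries (SD, n = 6 each; log2 fold change -0.27 ± 0.45, not called, and 0.16 with chromosome medians removed). The 106 tested regions within 5 Mb of Zeb1 differed by -0.12, less than chromosome 18 as a whole.

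At Vim regions moved in opposite directions. Peak_51204 (chromosome 2, 13447607 to 13448206) was the only member called higher, with 13.3, 21.1 and 18.2 CPM in Met2 and 26.1, 18.7 and 14.9 in Met3, against 1.74, 10.9 and 6.45 in Primary2 and 9.09, 6.37 and 11.5 in Primary3. Metastasis and primary libraries did not overlap, and the log2 fold change was 1.23 ± 0.34 (edgeR adjusted p = 0.0115). Low primary values rest on few counts, as the 6.37 CPM of Primary3 replicate 2, where 3 counts amount to 9.56 CPM. The 1.74 CPM of Primary2 replicate 1 rest on 3 counts. Peak_51204 was the strongest Vim region per length (26.2 CPM per kb). The widest region of all members, peak_51209 (13495121 to 13498038, 2917 bp), fell instead, to 31.9, 19.3 and 18.2 CPM in Met2 and 14.0, 23.3 and 18.8 in Met3, against 25.5, 35.6 and 37.9 in Primary2 and 41.6, 38.2 and 43.9 in Primary3. Only Met2 replicate 1 reached the primary range (log2 fold change -0.83 ± 0.23, edgeR adjusted p = 0.0119).

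As shares of the Vim counts, peak_51204 made up 22.2% ± 8.11 in metastasis and 7.42% ± 2.78 in primary libraries, and peak_51209 made up 23.6% ± 3.45 and 38.1% ± 5.07 (SD, n = 6 each). The summed signal of the interval was 87.4 ± 13.3 CPM in metastasis and 99.2 ± 23.7 in primary libraries, with overlapping ranges. Peak_51207 (13465833 to 13466435) also separated all 6 metastasis from all 6 primary libraries, at 0 to 7.31 and 8.11 to 12.7 CPM, but was not called by edgeR (log2 fold change -1.20 ± 0.46, adjusted p = 0.0698). It was called by DESeq2. In all, 4 members separated the 6 metastasis from the 6 primary libraries of rounds 2 and 3, as did 7.91% of all tested regions. They were peak_98588, peak_98602, peak_51204 and peak_51207. Met1 libraries overlapped the primary range at peak_98588 (18.1 to 36.4 against 22.3 to 48.7 CPM) and peak_51207 (3.40 to 17.1 against 8.11 to 12.7). The Met1 libraries lay outside it at peak_98602 and peak_51204.

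**Figure D3:**
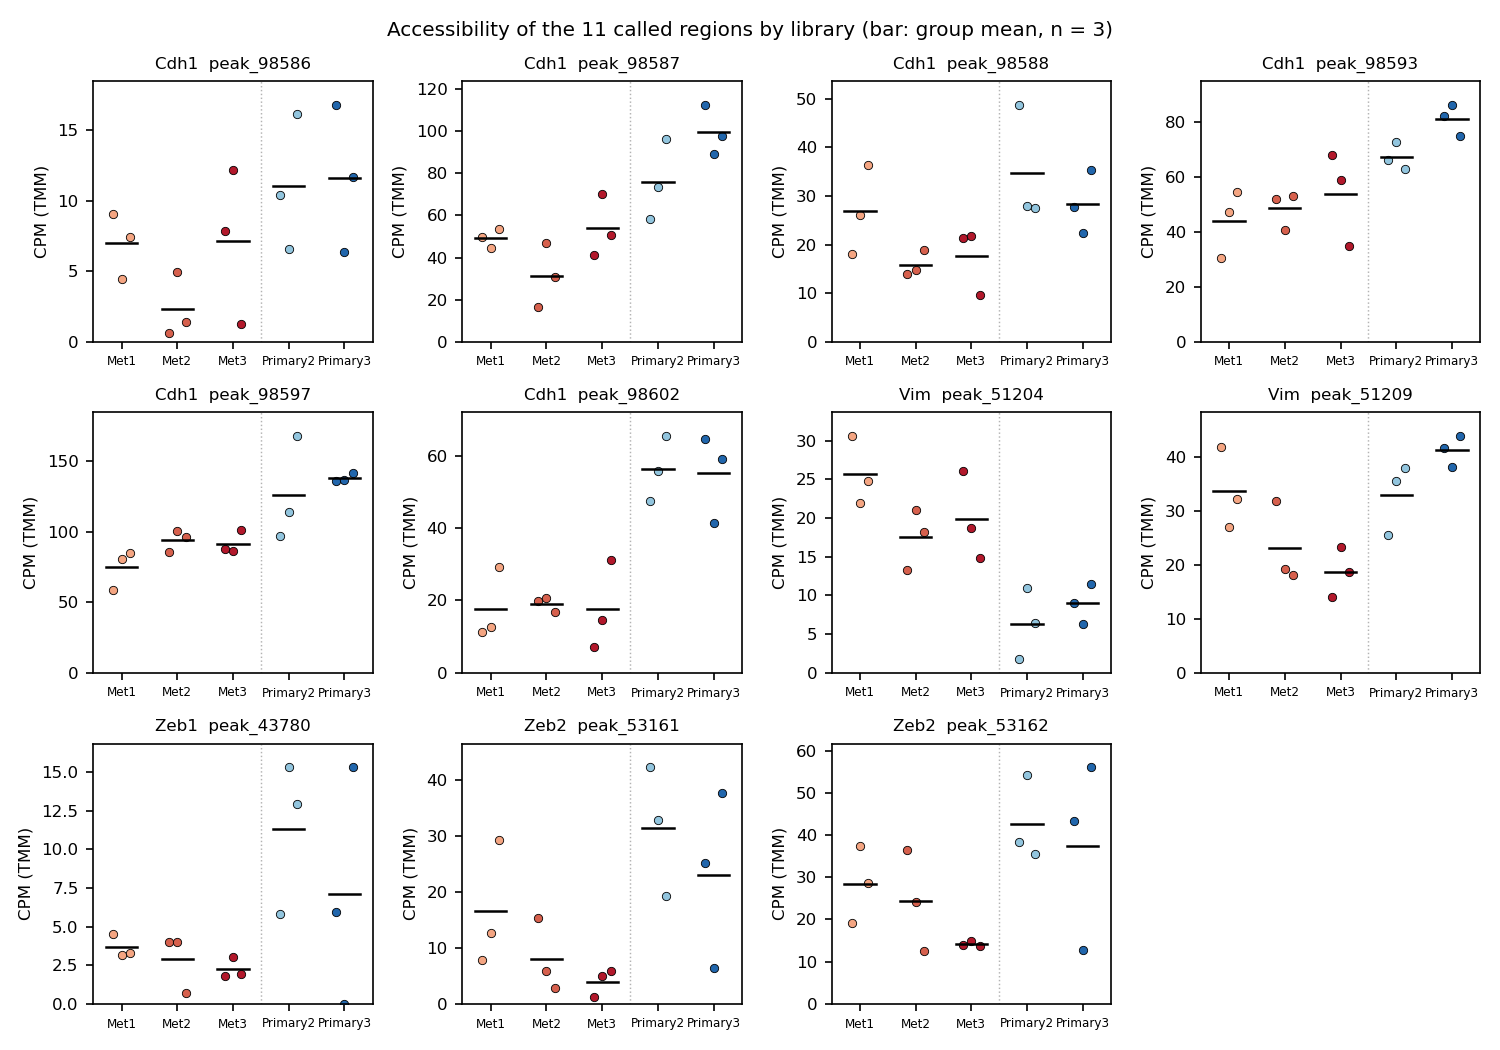
Accessibility in CPM (y axis, from 0) of the 11 called regions in each library of the 5 groups (x axis), with points for libraries and bars for group means (n = 3). In peak_51204 the metastasis libraries stand above the primary libraries, and in peak_98602 below them, in Met1 as in the later rounds.

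**Figure D4:**
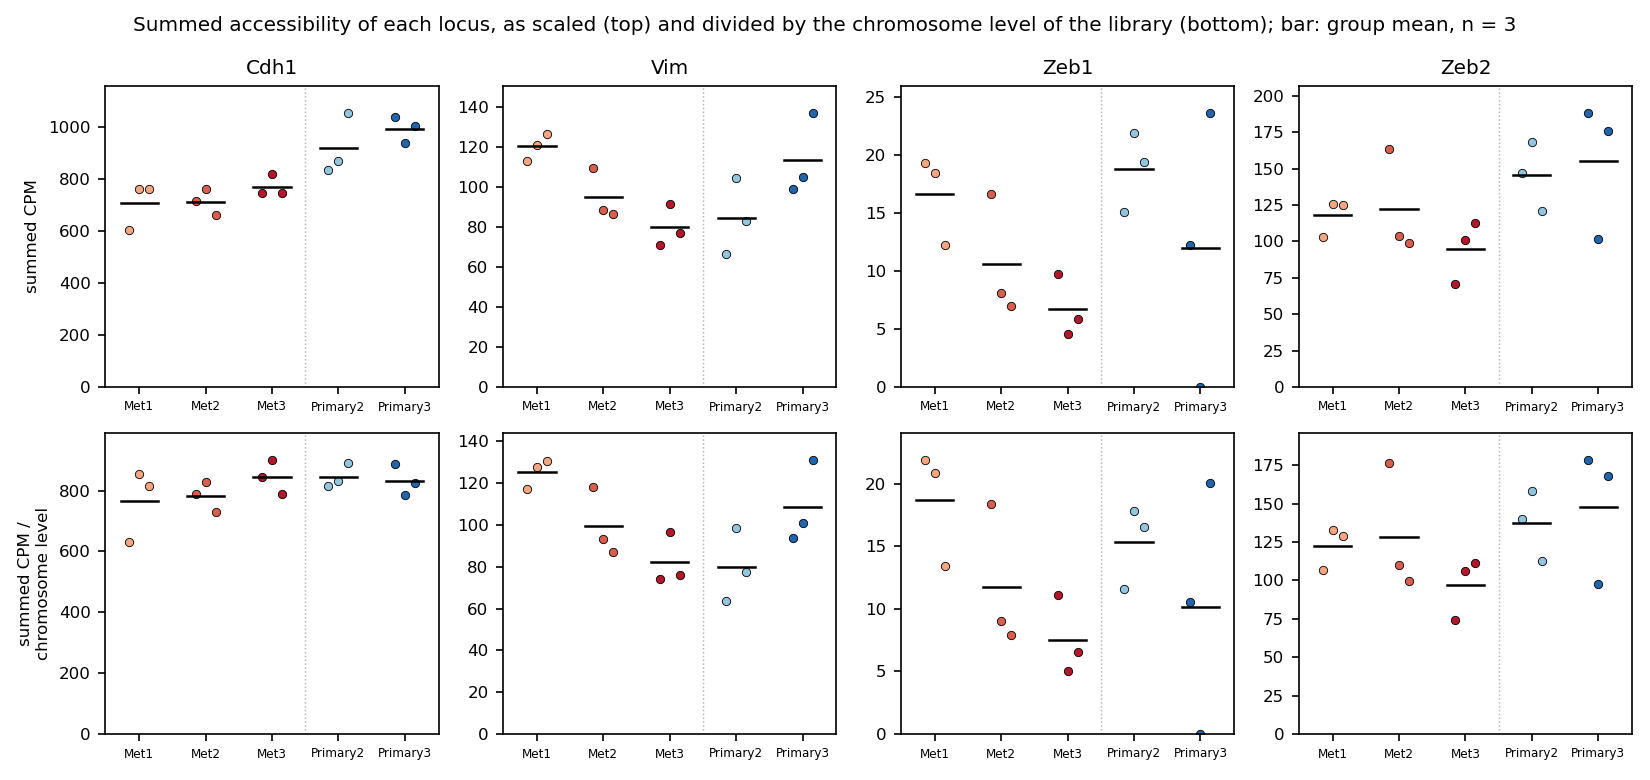
Summed CPM of each locus by library (top row, y axis from 0) and the same divided by the level of the library's chromosome (bottom row), by group on the x axis, with bars for group means (n = 3). The Cdh1 sums separate by origin in the top row, 663.3 to 821.4 in Met2 and Met3 and 835.2 to 1054 in Primary2 and Primary3, and overlap in the bottom row.

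The rounds were then taken singly. In round 2, 3 members fell in Met2 against Primary2, where 6.21% of all regions were called, 2.77% lower and 3.44% higher: peak_53161 (log2 fold change -1.997 ± 0.60), peak_98602 (-1.55 ± 0.40) and peak_98587 (-1.24 ± 0.30), with edgeR adjusted p from 0.0158 to 0.0459. In round 3, 4 members fell in Met3 against Primary3, where 10.2% of all regions were called, 4.52% lower and 5.64% higher: peak_53161 (-2.68 ± 0.63), peak_98602 (-1.71 ± 0.41), peak_53162 (-1.55 ± 0.41) and peak_51209 (-1.15 ± 0.33), with edgeR adjusted p from 0.00863 to 0.0257. Peak_98587 fell just short of the threshold in round 3 (-0.89 ± 0.29, edgeR adjusted p = 0.0521). It was called there by DESeq2 and with the replicate block, but not with chromosome medians removed. No member's effect differed between the rounds by edgeR (0 of 39952 called; peak_51210 was the 1 member below 0.05 before adjustment, and DESeq2 called 0 members). Calls in these smaller comparisons fell when certain single libraries were left out, among all regions as among the members. In round 2 the number of members called was 0 without Primary2 replicate 3, 1 without Primary2 replicate 1, and 1 in a fit of only Met2 and Primary2. Over all regions these settings called 1166, 963 and 1315 in this order, in place of 2480. Peak_53161 was lost there with chromosome medians removed (-1.84), with the replicate block (-2.02) and in the fit of only Met2 and Primary2 (-1.97), with edgeR adjusted p of 0.0627 to 0.0772. It was also lost without any of Met1 replicate 2, Met2 replicates 2 and 3, Met3 replicates 2 and 3, all Primary2 libraries and Primary3 replicates 1 and 3 (-2.24 to -1.62), and was -2.80 without Met2 replicate 1. Peak_98602 was lost without Met2 replicate 2 or 3 or any Primary2 library (-1.65 to -1.43), and peak_98587 without Primary2 replicate 3 (-1.04). In round 3 the number of members called was 0 without Met3 replicate 1, 2 without Met3 replicate 3, and 1 without Primary3 replicate 1 or 3. Over all regions these omissions left 1831, 2894, 1483 and 1950 calls in this order, in place of 4059. In round 3 peak_53161 was lost without Met3 replicate 1 (-2.29) or Primary3 replicate 3 (-2.20), and peak_98602 without Met3 replicate 1 (-1.36) or Primary3 replicate 1 (-1.59). The value at peak_98602 was -2.35 without Met3 replicate 3. Peak_53162 was lost without any Met3 library or Primary3 replicate 1 or 3 (-1.61 to -1.19), and peak_51209 without Met3 replicate 1 or 3 or Primary3 replicate 1 or 3 (-1.15 to -0.99).

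Comparison of the metastasis groups asked whether the members changed along the series. Between Met3 and Met1, peak_53161 was the only member called, lower in Met3, while 9.54% of all regions were called, 3.56% lower and 5.98% higher. It held 1.21, 4.96 and 5.83 CPM in Met3 and 7.93, 12.7 and 29.2 in Met1, a difference of -2.09 ± 0.63 on the log2 scale (adjusted p = 0.0377 by edgeR). Without Met1 replicate 3, the highest Met1 library, it was -1.39 and not called. The call was also lost with the replicate block (-2.01) and without Met1 replicate 2, any Met3 library, Primary2 replicate 1 or 2 or Primary3 replicate 1 (-2.37 to -1.70), and the count was 2 without Met1 replicate 1 or Met2 replicate 1. Scaling by total counts, under which the median of all regions was -0.17 in place of -0.04, kept the call. Between Met2 and Met1, 0 of 36 members were called by edgeR (3.55% of all regions, 2.64% higher and 0.909% lower), with 5 at an unadjusted p under 0.05 and 0 by DESeq2. Without Met2 replicate 1 the count of members was 2, and 2475 of all regions were called in place of 1417. Between Met3 and Met2 and between Primary3 and Primary2, edgeR called 0 of 39952 regions and DESeq2 0 members. Before adjustment, 6 members were below 0.05 for Met3 over Met2 and 1 for Primary3 over Primary2.

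The first-round metastasis libraries were set against the mean of both primary groups, a contrast in which round and origin cannot be told apart. It called 5 members, 3 lower and 2 higher in Met1, where 9.47% of all regions were called, 4.94% lower and 4.53% higher. The primary libraries are those of the comparisons above, so that the values are set side by side and not counted as recurrence. Peak_98602 held 11.3, 12.7 and 29.2 CPM in Met1 (log2 fold change -1.61 ± 0.36, edgeR adjusted p = 0.00615), and its difference between Met3 and Met1 was -0.09 ± 0.41. Peak_51204 held 30.6, 21.9 and 24.8 CPM in Met1 (1.67 ± 0.39, edgeR adjusted p = 0.00761). Peak_98597 (-0.80 ± 0.19) and peak_98587 (-0.83 ± 0.26) were lower as well. With chromosome medians removed these values were -0.49 and -0.53, and neither was called. At the Zeb2 region peak_53161, Met1 did not differ from the primary groups by the test (-0.72 ± 0.49, edgeR adjusted p = 0.392), and likewise at the wide Vim region peak_51209 (-0.16 ± 0.27, adjusted p = 0.772), where Met1 held 41.9, 27.0 and 32.2 CPM.

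Peak_98591 (109108968 to 109109477), inside the Cdh1 interval, was high in Met1 alone among the group means. It held 11.3, 23.5 and 16.7 CPM in Met1, 5.31, 6.73 and 4.89 in Met2, and 17.0, 3.43 and 5.83 in Met3, against 6.95, 5.47 and 11.3 in Primary2 and 4.55, 0 and 3.10 in Primary3. Met3 replicate 1 reached the Met1 values (Met1 over primary, log2 fold change 1.77 ± 0.49, edgeR adjusted p = 0.0223). The call was lost without Met1 replicate 2 or 3, Primary2 replicate 1 or 2 or Primary3 replicate 3 (1.48 to 1.80). Of the 5 calls of this contrast 1 was left without Met1 replicate 2, 3 without Met1 replicate 3 or Primary2 replicate 2, and 3 with chromosome medians removed. Over all regions these settings called 1162, 2710, 3331 and 3414 in this order, in place of 3784. Without Met1 replicate 2, peak_98602 (-1.36) and peak_98597 (-0.84) were among those lost, and without Met1 replicate 3 the value at peak_98602 was -2.22. The call at peak_98587 was lost by total-count scaling (-0.77) and without any Met1 library, Met3 replicate 3, Primary2 replicate 2 or 3 or Primary3 replicate 1 or 3 (-0.91 to -0.74).

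**Figure D5:**
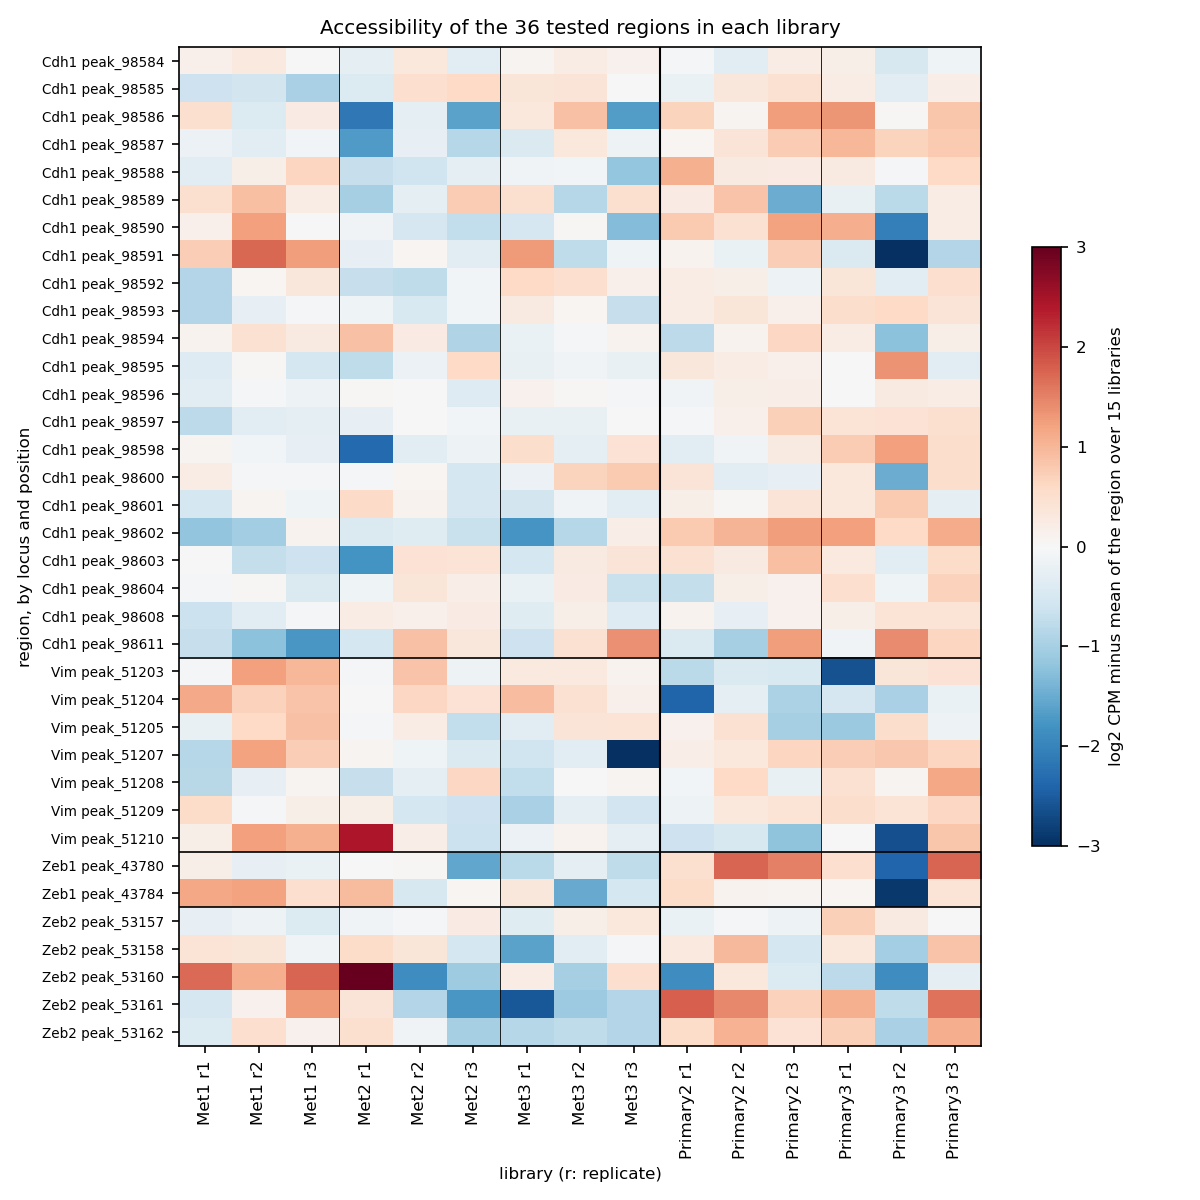
Log2 CPM of the 36 tested regions (rows, by locus and position) in each library (columns), as the difference from the region's mean over 15 libraries (colour, blue low and red high, limited at 3). Peak_98602 is blue in most metastasis columns and red in the primary ones, and peak_53160 and peak_51210 are deepest red in Met2 replicate 1.

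The regions of a locus varied in how far they moved together. Over the 15 libraries, which share library depth between all regions, the median Pearson correlation between pairs of regions was 0.16 at Cdh1 (231 pairs, from -0.80 to 0.82), 0.16 at Zeb2 (10 pairs, -0.40 to 0.88) and 0.00 at Vim (21 pairs, -0.30 to 0.68). The only pair at Zeb1 had a coefficient of 0.50. The highest value at Zeb2 was between peak_53161 and peak_53162, the 2 called regions. Group means were not removed, so this coefficient includes the difference by origin for which both were called. For the region of highest mean level at each locus, the most alike regions elsewhere in the table were found by the same coefficient over 15 libraries. They were peak_12175 on chromosome 11 for peak_98597 at Cdh1 (r = 0.93), peak_53736 on chromosome 2 for peak_51209 at Vim (0.92), peak_2770 on chromosome 1 for peak_43784 at Zeb1 (0.93) and peak_49598 on chromosome 19 for peak_53157 at Zeb2 (0.87), each the highest among the other tested regions. No reference for the highest of so many coefficients was computed, so their size is not read further.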

How the data were processed

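ATAC-seq reads were counted by the authors over regions called across all samples, and the deposited table holds raw counts per region and library. Tools listed per the submitters' processing notes, with neither role nor version, are MACS2, Bowtie, bedtools, SAMtools and Picard, and the build is mm9. Read shifting and duplicate removal are not given in the sources used here. From the deposited counts, regions were kept by filterByExpr of edgeR 4.0.16 (minimum count 10, minimum total 15), scaled by TMM and fitted with 1 mean per group over 15 libraries by the quasi-likelihood test. P-values were adjusted by Benjamini-Hochberg over 39952 regions and called under 0.05. CPM are on the TMM scale, and standard errors follow from the test statistic. DESeq2 1.42.0 (R 4.3.3) and the other alternatives are given at the end. The intervals, members and lists were chosen with earlier results of these data known. Named regions are those called in a comparison, the strongest of each locus and, chosen after their values were seen, uncalled regions set beside them. No mm9 genome or annotation was used here, so regions were not assigned to gene starts, and the planned pathway and marker lists were not run. Depths of 285633 to 5916109 counts set the precision, and floors cover counting error only.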

Additional observations from a re-analysis of the deposited data

Results flagged for a closer look

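Values of each tested member and of each locus sum were examined over the 9 metastasis and over the 6 primary libraries. In 10 of these 80 sets, all of them of single regions, 1 library lay far from the others by Dixon's criterion. For independent, normal values of a single group the criterion marks about 1 in 20 sets, or 4. Here the CPM were not transformed, the metastasis sets pool Met1, Met2 and Met3, and the regions share libraries. The 10 sets therefore cannot be read as an excess over 4. At Cdh1, peak_98590 held 8.25 CPM in Met1 replicate 2, whereas the other metastasis libraries held 0.647 to 3.40. Peak_98595 held 16.8 CPM in Met2 replicate 3, with 5.98 to 11.1 in the other metastasis libraries, and 28.7 CPM in Primary3 replicate 2, with 8.43 to 13.9 in the other primary libraries. Peak_98597 held 58.9 CPM in Met1 replicate 1, below the 80.9 to 101.0 of the others, and peak_98601 held 129.5 in Met2 replicate 1, above 58.9 to 93.7.

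Met2 replicate 1 also stood out at Zeb2 and Vim. Peak_53160 held 38.5 CPM there, with 0 to 10.4 in the other metastasis libraries, and peak_51210 held 30.5, with 2.80 to 12.7. At Vim, peak_51208 held 32.9 CPM in Met2 replicate 3, with 11.3 to 22.1 in the others. At Zeb2, peak_53161 held 29.2 CPM in Met1 replicate 3, with 1.21 to 15.3 in the others. At Zeb1, peak_43784 held 0 CPM in Primary3 replicate 2, the shallowest library, with 6.29 to 9.27 in the other primary libraries.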

How the results depend on the processing

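Of the 11 members called between metastasis and primary libraries of rounds 2 and 3, 7 were called with chromosome medians removed, and leaving out single libraries gave 6 to 12. Over all regions 8080 were called, 7488 with chromosome medians removed and 5951 to 8947 when single libraries were left out. For all regions, such omissions gave 963 to 2969 calls for Met2 over Primary2 and 1483 to 5433 for Met3 over Primary3. Among the members, such omissions gave 0 to 3 calls for Met2 over Primary2 (3 with all libraries), 0 to 6 for Met3 over Primary3 (4), 0 to 2 for Met3 over Met1 (1), 0 to 2 for Met2 over Met1 (0) and 1 to 7 for Met1 over the primary groups (5). Fitting Met2 and Primary2 alone called 1 member. For Met3 over Met1, DESeq2 called 2, the replicate block 0, and omission of Met1 replicate 1 and Primary3 replicate 2 together 3. Chromosome medians removed left 3 for Met1 over the primary groups. The log2 ratio of the Cdh1 sum was -0.37, and -0.044 over the chromosome level or -0.023 over the level within 5 Mb, the last chosen after seeing the data. Uncalled values that changed sign were peak_43784, at 0.16 with chromosome medians removed, and peak_53157, at 0.067 with them removed, 0.02 without Met3 replicate 1 and 0.073 without Primary3 replicate 1 (-0.15 to 0.073 over omissions of single libraries). The cause was not tested.

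Same-numbered libraries deviated together (r over 0.1) in 2 of 30 pairs, and others in 8 of 60, so the numbers were not taken as a pairing; the replicate block called 9 members between origins, 2 in round 2, 5 in round 3 and 5 for Met1 over the primary groups. The motif search within regions was not run, for want of an mm9 sequence. Regions under about 10 CPM rest on few counts in the shallowest library.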
